A study of Caenorhabditis elegans with 12 samples.

Results

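The change over the first 5 days of adulthood was followed in Caenorhabditis elegans that lack the microRNA gene mir-71. The comparison set 3 libraries of mir-71(n4115) animals at day 5 against 3 at day 0, 6 of the 12 libraries of the series. The other 6 were of N2, the laboratory wild type, at the same ages. Both genotypes were grown at 20 °C and transferred, soon after the last molt, to plates with 0.1 mg/mL 5-fluorodeoxyuridine (FUdR), so the N2 controls carried the drug too. The mutant strain is MT12993, the only mir-71 strain in the series, so effects of other loci in that strain cannot be told apart from those of the allele. Poly(A) RNA came from whole bodies, and fewer cells of a type cannot be told apart from less RNA per cell. Likewise, effects of aging cannot be told apart from those of longer exposure to FUdR. The labels do not say whether replicates came from separate cultures, so the p-values measure the spread between these libraries, which may be technical.

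A hermaphrodite of this species makes its sperm as a larva, then switches to oocytes for the rest of its reproductive life. Cuticle collagen genes are transcribed in waves around each molt, and the adult intestine makes yolk for the oocytes. FUdR blocks thymidylate synthase and so DNA synthesis, which keeps adults from producing offspring. mir-71 is known as a microRNA whose loss shortens adult life. It lies in an intron of ppfr-1 and is known to act in the nervous system. The mir-71 gene had 0 counts in all 12 libraries. Mature microRNAs carry no poly(A) tail, so this value checks no label.

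Mutant libraries held 20.5 to 65.2 M counts (mega, counts per library), and 3 counts in a library amounted to 0.045 to 0.134 CPM (counts per mega counts of the scaled library). Day 0 and day 5 lay apart on the first principal component of the 6 libraries, which held 86.6% of the variance. Day 5 libraries lay between 97.7 and 118 on it, day 0 libraries at -78.2, -149.9 and -104.8 in replicates 1, 2 and 3. Day 0 replicates 1 and 2 thus lay furthest apart, with replicate 3 between them. Replicate 2 had the highest level of the 3 for 44.1% of tested genes and the lowest for 34.2%. Between day 0 replicates 1 and 2, 23.6% of genes differed more than 2-fold, between 2 and 3 15.1%, and between 1 and 3 8.8%. Pairs at day 5 gave 4.85% to 6.43%. Sperm genes were highest in day 0 replicate 2 (28 of 29 major sperm proteins), as were 88 of 130 numbered collagens and 47 of 58 muscle genes. It held the lowest level for 26 of 37 oocyte and eggshell genes. N2 day 0 replicate 2 deviated from its group in a like way (r = 0.664 across genes, which are not independent replicates). The part of this difference between day 0 libraries in the changes with age was not tested, and values without each library are given where a call or a count moved by over 1.5 times.

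Of 16764 genes tested, 4175 (24.9%) were higher and 4588 (27.4%) lower at day 5 than at day 0 in the mutants (edgeR quasi-likelihood test, Benjamini-Hochberg adjusted p below 0.05). Together 52.3% of genes passed. For 59.1% of genes the 3 levels at day 0 did not overlap the 3 at day 5. Leaving out each mutant library in turn gave 3247 to 3996 rises and 3930 to 4709 falls. Similar numbers rose and fell, but falls ran deeper. A change of more than 2-fold was fitted for 2198 rises and 3240 falls, and one of more than 16-fold for 118 rises and 1229 falls. Beyond 64-fold there were 24 rises and 422 falls, or 18 and 391 with genes at 0 counts in 1 group set to a bound of 3 counts over that group. The median log2 fold change was 1.04 among the rises and -1.72 among the falls, against 0.01 over all tested genes. Fitted folds of genes at 0 counts in a group depend on the prior count and are not bounds.

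**Figure D1:**
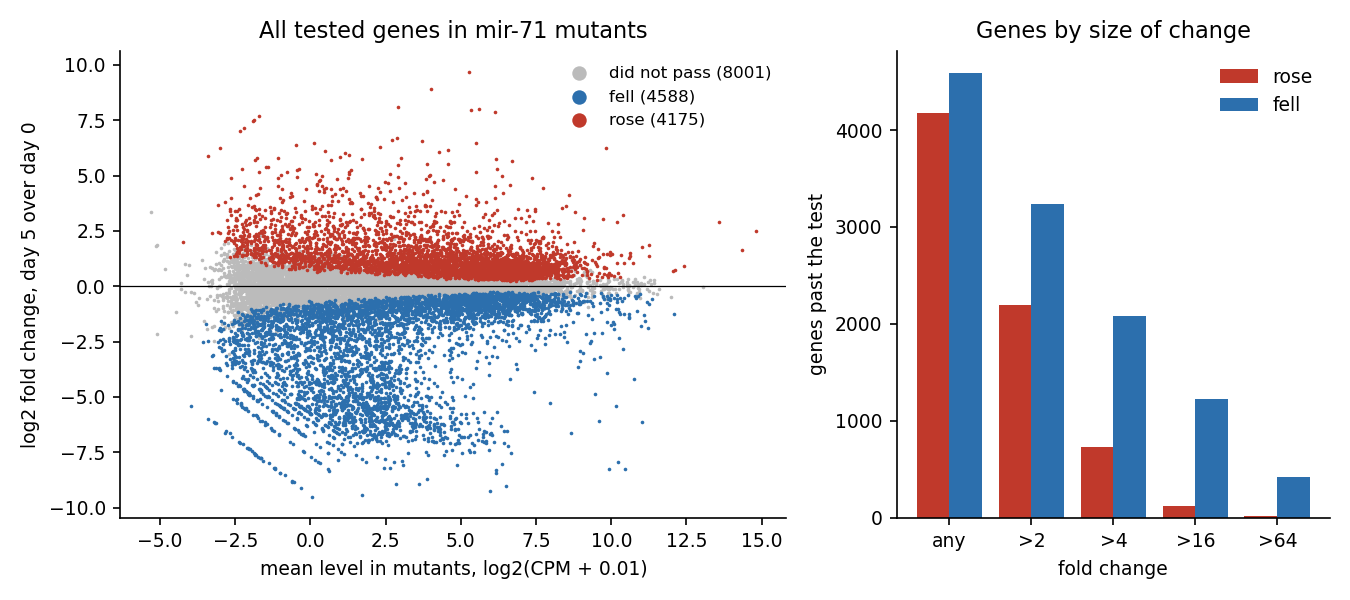
Left, log2 fold change from day 0 to day 5 against mean level in the mutants for 16764 genes, coloured by the edgeR call. Right, genes past the test by size of fold change, with 422 falls and 24 rises beyond 64-fold.

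Calls were spread unevenly over the genome and over gene size, given here as description. On the X chromosome 18.7% of tested genes fell and 26.7% rose. On chromosome IV 31.9% fell, on chromosome I 31.02%, and on chromosome V 25.96%. With genes cut into 4 equal sets by exon length, the shortest (69 to 861 bases) fell in 34.6% of cases and rose in 20.3%. Of the longest (1985 to 56044 bases) 19.04% fell and 30.3% rose. Median exon length was 1140 bases among protein-coding genes that fell and 1464 among those that rose. With genes cut into 10 equal sets by mean level, 41.6% of the highest set rose, and in sets 3, 4 and 5 from the bottom 34.01%, 35.003% and 34.8% fell. Pseudogenes fell in 36.9% of 681 cases.

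Major sperm protein (MSP) genes lost nearly all of their transcripts. All 29 tested fell, against 27.4% of all tested genes, with a median log2 fold change of -7.02 (-6.999 with genes at 0 counts at their bound). These small proteins form the crawling sperm's cytoskeleton and signal to the oocyte. Their summed level was 1002, 2432 and 1374 CPM at day 0 in replicates 1, 2 and 3 and 22.3, 8.05 and 10.3 CPM at day 5. msp-36 (WBGene00003432, chromosome IV, 10095433 to 10095816) stood at 83.8, 214 and 115.1 CPM at day 0 and 1.55, 0.738 and 0.831 CPM at day 5, a log2 fold change of -7.06 ± 0.49 (SE; adjusted p = 1.41e-06). Replicate 2 was highest at day 0 and replicate 1 at day 5, and every day 0 value lay far above every day 5 value. Each of the 29 genes fell without any 1 library.

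Of 66 genes of small sperm-specific peptide families, 52 fell and 3 rose, with a median of -5.86 (49 to 53 fell with 1 library left out). The shares over all tested genes were 27.4% falls and 24.9% rises. ssq-2, one of the sperm-specific family ssq, went from 123, 307 and 177 CPM to 2.1, 0.465 and 0.807 CPM (-7.51 ± 0.58, adjusted p = 1.97e-06). nspd-10 changed by -7.42 ± 0.47 and nspd-3 by -7.13 ± 0.44. Members of the msp, ssq, nspd and nsph families are near-identical in sequence, so the split of reads among them is uncertain. Genes with roles in sperm formation, activation and fertilization were mixed. Of 34, 22 fell and 6 rose. gsp-4, a sperm protein phosphatase, fell from 20.7, 92.7 and 45.3 CPM to 1.08, 0.529 and 0.684 CPM (-6.12 ± 0.61, adjusted p = 8.57e-06). spe-46 fell by a log2 of 5.95, and spe-12 by 5.24. fog-1, an RNA-binding protein that directs germ cells to the sperm fate, moved the other way. Its level was 13, 14.4 and 13.2 CPM at day 0 and 97.2, 120.4 and 106 CPM at day 5, with little spread at either age (3.00 ± 0.16, adjusted p = 3.3e-07).

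**Figure D2:**
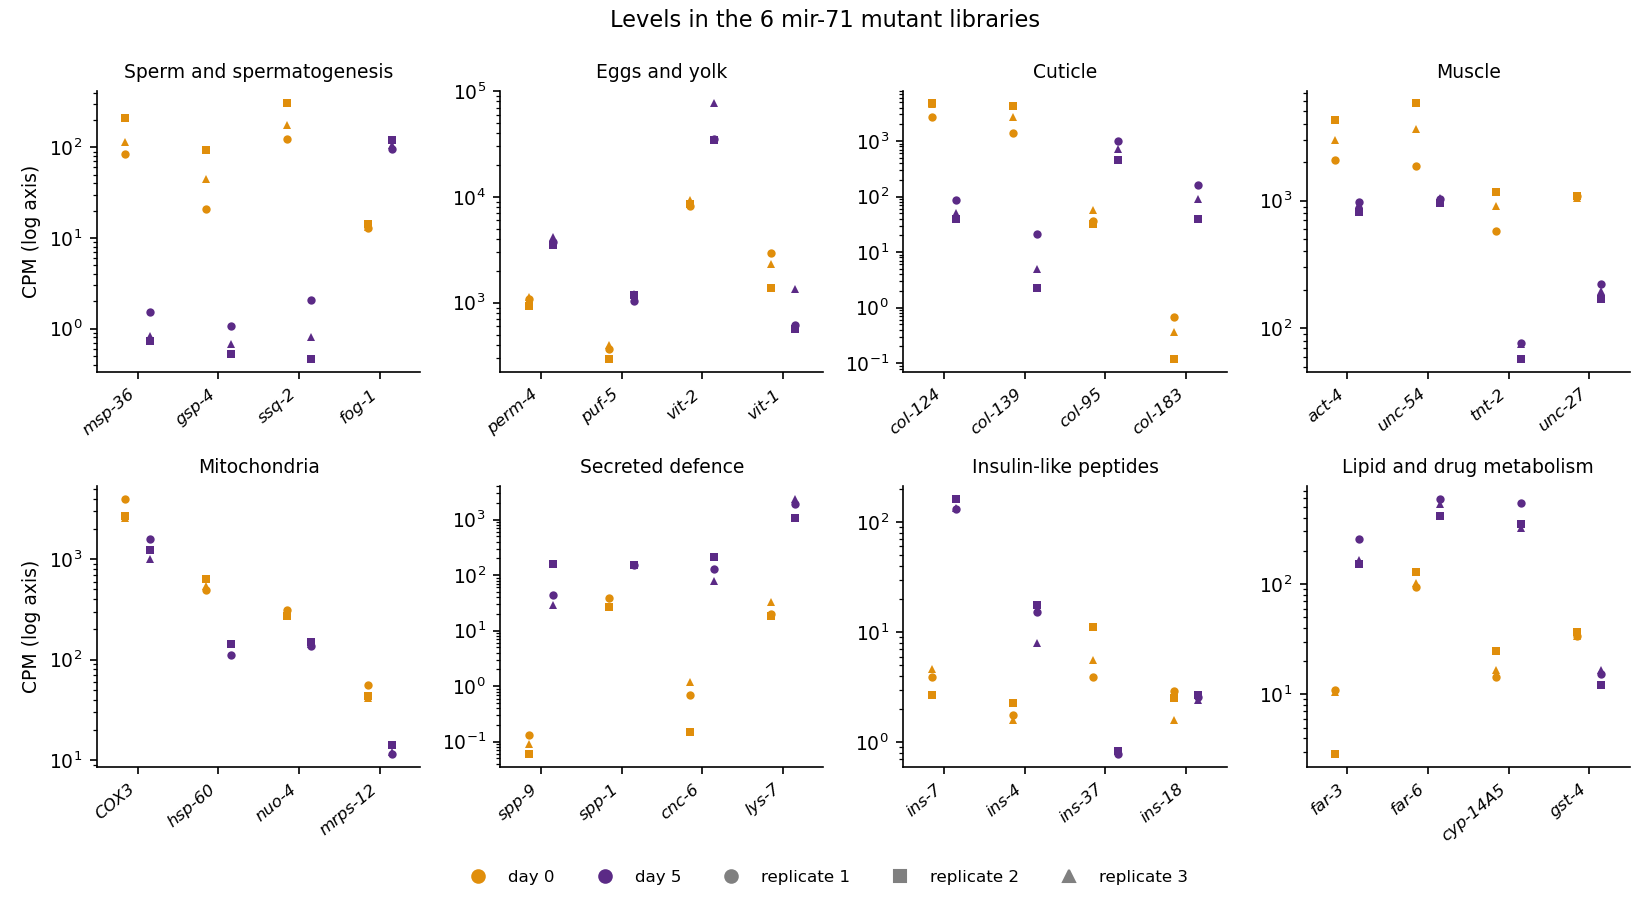
CPM on log axes of 32 named genes in the 6 mutant libraries, orange at day 0 and purple at day 5, with a marker shape for each replicate. Sperm, collagen and muscle genes spread at day 0, where replicate 2 is highest for msp-36, gsp-4, ssq-2, act-4, unc-54 and tnt-2. Ages lie apart in all genes shown but ins-18, and in 59.1% of all tested genes.

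Transcripts of oocytes and the eggshell rose. Of 37 listed genes 32 rose (24.9% of all tested genes did) and 1 fell, and the group took 1.52, 1.24 and 1.64% of the counts at day 0 and 2.64, 2.98 and 2.7% at day 5. Levels of perm-4, which contributes to the permeability barrier of the egg, were 1089.7, 928 and 1122 CPM at day 0 and 3756, 3479 and 4196 CPM at day 5 (1.86 ± 0.17, adjusted p = 4.34e-06). puf-5, an oocyte RNA-binding protein of the Pumilio family, went from 364, 295 and 402 CPM to 1033, 1189 and 1207 CPM (1.69 ± 0.21). cpg-2, a chondroitin proteoglycan of the eggshell, went from 1442, 1008 and 1617 CPM to 2960.2, 3719 and 3756 CPM (1.36 ± 0.24). None of the 3 genes overlapped between the ages, nor did 59.1% of all tested genes. Without any 1 library 31 to 32 of the list rose. Among 31 genes first transcribed in embryos, 12 rose and 3 fell, and 7 rose without day 0 replicate 3. sdz-35 rose, at 0.28, 0.225 and 0.0894 CPM and 3.24, 2.5 and 2.57 CPM (3.68 ± 0.41). In contrast, sdz-24 had the deepest fall of the list, from a mean of 17.1 CPM to 1.33 CPM (log2 -3.69). The summed share of counts of the 31 genes was small, 0.0239% ± 0.00838 at day 0 and 0.0343% ± 0.00637 at day 5 (SD, n = 3).

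Of 57 genes for copying DNA and dividing cells 40 rose, with 0 falls and a median of 0.54 (2 falls without day 0 replicate 2). Over all tested genes 24.9% rose and 27.4% fell. pcn-1, the sliding clamp of the replication fork, went from 221, 178 and 232 CPM to 535, 519 and 469.8 CPM (1.27 ± 0.14, adjusted p = 1.85e-05). mcm-3, a subunit of the replicative helicase, changed by 1.08 ± 0.13. tyms-1 (WBGene00022455, chromosome I, 5138250 to 5139382) encodes thymidylate synthase, the enzyme that FUdR blocks. It had the largest rise of the list, from 16, 9.47 and 11.9 CPM to 51, 51 and 47.9 CPM (2.00 ± 0.24, adjusted p = 2.59e-05), and its 3 day 5 values were close together. Among 18 DNA damage genes, 7 rose and 1 fell (2 fell without day 0 replicate 3 and 4 without day 0 replicate 1). Their median was -0.05. csb-1, of transcription-coupled repair, rose by 2.03 ± 0.26, polh-1, a translesion polymerase, by 0.79 ± 0.10 and the checkpoint kinase chk-1 by 0.78 ± 0.14. fcd-2, of the Fanconi anemia pathway, changed by -0.997 ± 0.17.

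Meiotic and germ granule genes fell about as often as the 27.4% of all tested genes. Meiotic genes fell in 11 of 36 cases and rose in 4 (2 without day 0 replicate 3), all by less than 1 on the log2 scale. him-6, a helicase of meiotic recombination, went from 43.6, 56.1 and 52.4 CPM to 27.3, 26.5 and 32 CPM (-0.83 ± 0.16), and mre-11, which processes DNA breaks, from 77.7, 75.8 and 83 CPM to 113, 143 and 125 CPM (0.69 ± 0.13). Of 28 germ granule genes 7 fell and 6 rose, with 2 rises left without day 0 replicate 1, day 5 replicate 2 or day 5 replicate 3. The Argonaute gene csr-1 went from 344, 396 and 424 CPM to 147, 191 and 208 CPM (-1.09 ± 0.17, adjusted p = 0.00021), and the helicase gene glh-1 from 441, 452 and 525 CPM to 237, 264 and 289 CPM (-0.84 ± 0.16). Genes of the stem cell niche included opposite changes. apx-1, a Notch ligand, rose by 1.26 ± 0.14 and lst-1, which keeps stem cells undivided in fate, by 1.11 ± 0.13, while the RNA-binding protein gene fbf-2 went from 31.2, 43 and 37.8 CPM to 12.4, 13.2 and 13.8 CPM (-1.51 ± 0.20). Of 14 tested, 6 rose and 4 fell (2 fell without day 0 replicate 2, day 5 replicate 1 or day 5 replicate 2).

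Yolk protein transcripts split by gene. vit-2 (WBGene00006926, chromosome X, 5101042 to 5106169) stood at 8143, 8577 and 9374 CPM at day 0 and 35365, 34154 and 76796 CPM at day 5 (2.49 ± 0.31, adjusted p = 3.53e-05). vit-5 changed by 2.91 ± 0.31 and vit-6 by 1.63 ± 0.32. Without day 5 replicate 3 the change of vit-6 was 1.06. In contrast, vit-1 fell from 2971, 1384 and 2319 CPM to 612, 560.1 and 1339 CPM (-1.41 ± 0.37, adjusted p = 0.00616). vit-3 (log2 0.11) and vit-4 (log2 0.03) did not pass, and their ages overlapped. Day 5 replicate 3 was highest at that age for all 6 genes, by about the same factor, and vitellogenins took 7.73, 7.36 and 14.9% of its and the other day 5 libraries' counts in order of replicate, against 2.98, 2.52 and 3.05% at day 0. Vitellogenin genes share sequence, in particular vit-3 to vit-5, so their separate levels are uncertain. elt-2, the intestinal GATA factor, rose from 6.99, 3.9 and 8.18 CPM to 20.7, 14 and 34.9 CPM (1.88 ± 0.37), again with day 5 replicate 3 highest.

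**Figure D3:**
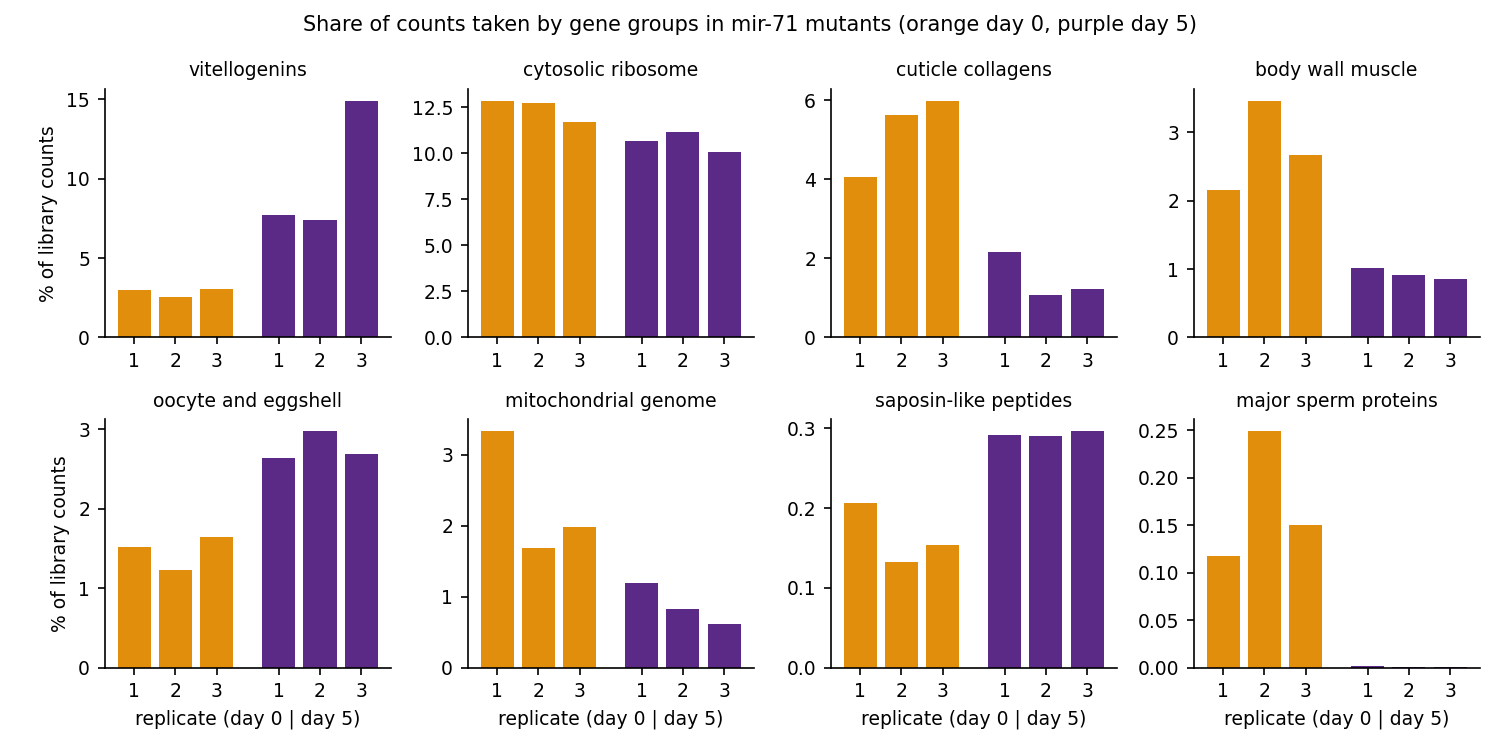
Percent of each library's counts taken by 8 gene groups in the mutant libraries, bars in order of replicate at day 0 (orange) and day 5 (purple). Vitellogenins reach 14.9% in day 5 replicate 3, and major sperm proteins drop from at most 0.249% to at most 0.00231%.

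Most cuticle collagens fell, some from levels among the highest of all genes. Over all tested genes 27.4% fell and 24.9% rose. Of 130 numbered collagens, 96 fell and 7 rose, with a median of -3.04 (86 to 94 fell with 1 library left out). Together they took 4.05, 5.63 and 5.98% of the counts at day 0 and 2.17, 1.07 and 1.24% at day 5. col-124 (WBGene00000698, chromosome IV, 10216451 to 10217617) went from 2713, 4769.7 and 4679 CPM to 86.3, 39.1 and 49.9 CPM (-6.12 ± 0.38, adjusted p = 9.37e-07). col-139 went from 1415, 4297 and 2705 CPM to 20.7, 2.25 and 4.86 CPM (-8.24 ± 0.93), and col-20 from 2589, 3297 and 4019 CPM to 297, 117 and 123 CPM (-4.21 ± 0.38). The falls of col-133 (-9.24 ± 1.40) and col-147 (-9.01 ± 1.46) rest on very unequal day 0 libraries. col-133 had 13.7, 294 and 66.3 CPM there and col-147 15.6, 400 and 129.7 CPM, with 0.048 to 0.741 CPM in any day 5 library. Collagens known from body shape mutants fell in 13 of 21 cases, bli-6 from 13.4, 41.4 and 30.7 CPM to 0.741, 0.193 and 0.0978 CPM. Collagen genes share sequence, so reads of single members may be misassigned.

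The 7 collagens that went against the rest included col-183 (WBGene00000756, chromosome X, 13466643 to 13467764), which had 0.673, 0.12 and 0.358 CPM at day 0 and 161, 39.4 and 88.6 CPM at day 5 (7.99 ± 0.71, adjusted p = 4.19e-06). Replicate 1 was highest at both ages and replicate 2 lowest. col-95 went from 36, 32.7 and 57.3 CPM to 1011, 450.1 and 726 CPM (4.12 ± 0.37) and col-43 from 0.916, 1.72 and 1.57 CPM to 38.4, 14.1 and 30.7 CPM (4.31 ± 0.44), both chosen after their values were seen. Of the 3 genes, each had day 5 levels highest in replicate 1 and lowest in replicate 2. Among the body shape collagens dpy-14 (log2 2.97 ± 0.41) and dpy-9 (1.83 ± 0.34) rose.

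Other epidermal genes changed in both directions, beside 24.9% rises and 27.4% falls over all tested genes. Hedgehog-related secreted proteins fell in 15 of 40 cases (9 without day 5 replicate 2) and rose in 8. grd-10 went from 44.3, 37.5 and 46.6 CPM to 0.36, 0.0321 and 0.293 CPM (-7.62 ± 0.57, adjusted p = 1.77e-06), and grd-3 from 122.4, 125 and 149 CPM to 19.1, 11.3 and 13.5 CPM (-3.17 ± 0.22). For both genes the ages lay far apart, and 4386 of the 4588 called falls had no overlap. In the list of molting regulators and apical matrix 13 of 43 rose and 10 fell (6 without day 0 replicate 2 or day 5 replicate 2). The nuclear receptor gene nhr-67 rose from 0.505, 0.539 and 0.492 CPM to 8.09, 5.2 and 4.38 CPM (3.51 ± 0.31), and bli-4, a proprotein convertase that processes collagens, from 161, 209 and 196 CPM to 381, 381 and 351 CPM (0.98 ± 0.13). Epidermal filament and attachment genes rose in 8 of 16 cases (5 without day 0 replicate 1, day 0 replicate 3, day 5 replicate 1 or day 5 replicate 3) and fell in 2. mua-6, an intermediate filament gene, rose from 29.3, 38.9 and 66.3 CPM to 241, 196 and 138 CPM (2.103 ± 0.38), and sma-1, a heavy spectrin, by 1.28 ± 0.22.

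Most body wall muscle transcripts fell, where 27.4% of all tested genes fell and 24.9% rose. Of 58 sarcomere and attachment genes 35 fell and 5 rose, and their share of the counts went from 2.15, 3.46 and 2.67% to 1.01, 0.913 and 0.85%. The troponin T gene tnt-2 went from 579, 1161 and 906 CPM to 76.9, 57.8 and 75.5 CPM (-3.65 ± 0.27, adjusted p = 1.59e-06), and the troponin I gene unc-27 from 1082, 1097 and 1048 CPM to 222, 169 and 197 CPM (-2.45 ± 0.15). Day 0 values of unc-27 were nearly equal, whereas those of unc-54, the major myosin heavy chain gene, were 1859, 5786 and 3636 CPM, against 1035, 963 and 1056 CPM at day 5 (-1.89 ± 0.35). Tropomyosin (lev-11) changed by -1.94 ± 0.20 and the actin gene act-4 by -1.79 ± 0.24. With 1 library left out 29 to 41 of the list fell. Pharynx genes fell in 15 of 34 cases and rose in 7. Those counts leaned on single libraries, with 8 falls without day 5 replicate 2 and 9 without day 0 replicate 2 or day 5 replicate 1. Rises numbered 2 without day 0 replicate 3, day 5 replicate 1 or day 5 replicate 3, 3 without day 0 replicate 1 and 4 without day 5 replicate 2. The pharyngeal gland gene phat-4 fell from 32.5, 74.8 and 48.6 CPM to 2.35, 1.32 and 0.684 CPM (-5.15 ± 0.49), and the regulator peb-1 rose from 0.617, 1.96 and 1.3 CPM to 10.1, 10.3 and 9.53 CPM (2.94 ± 0.39).

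Synaptic genes passed the test less widely than the 52.3% of all tested genes. Of 48 synaptic genes 14 rose, 3 fell (1 without day 5 replicate 3) and 31 did not pass, with a median of 0.26. snb-1, the synaptobrevin of synaptic vesicles, went from 151, 141 and 148 CPM to 322, 284 and 286 CPM (1.02 ± 0.10, adjusted p = 6.86e-06), and unc-57, an endophilin of vesicle recycling, changed by 0.98 ± 0.12. Of 14 touch receptor neuron genes 2 rose (1 without day 0 replicate 1 or 2 or day 5 replicate 1 or 2) and 3 fell. mec-4, a channel subunit that senses touch, rose by 1.33 ± 0.34, and falls were those of mec-7 (-0.77 ± 0.19) and mec-12 (-0.69 ± 0.17), tubulins of these cells, and of mec-17 (-0.71 ± 0.20), which acetylates tubulin. Of 58 neuropeptide-like precursors 16 rose (10 without day 0 replicate 3) and 6 fell, where 24.9% of all tested genes rose and 27.4% fell. nlp-16 rose from 9.66, 8.77 and 8.5 CPM to 75.1, 47.9 and 48.6 CPM (2.67 ± 0.26), and nlp-4 fell from 4.22, 7.42 and 4.47 CPM to 0.233, 0.144 and 0.0978 CPM (-5.05 ± 0.39). FMRFamide-like precursors passed the test in 4 of 30 cases. The clearest was flp-18, from 16.5, 13.6 and 13.3 CPM to 30.4, 24.7 and 24.4 CPM (0.87 ± 0.19, adjusted p = 0.00205). Of the others, 3 rises in all became 1 without day 0 replicate 3, and the only fall was lost without day 0 replicate 2 or any 1 day 5 library.

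**Figure D4:**
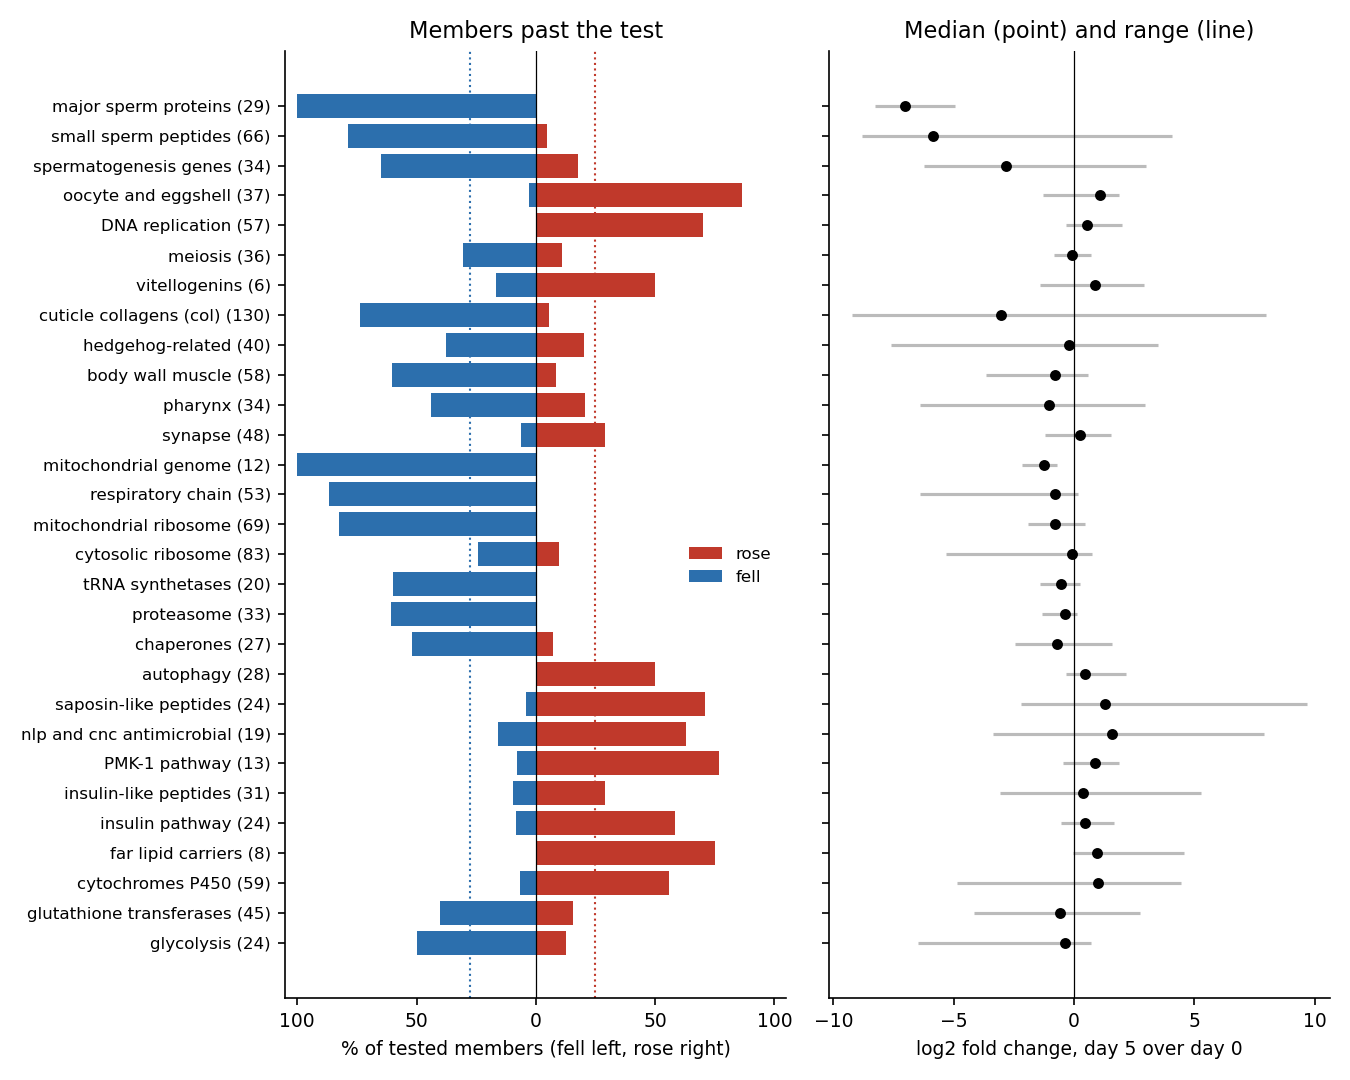
Left, percent of tested members of 29 gene groups that rose (red) or fell (blue) by the edgeR test, with dotted lines at 24.9% and 27.4% of all tested genes and the number tested in brackets. Right, median log2 fold change and full range of the members, from -7.02 for major sperm proteins to 1.58 for the nlp and cnc antimicrobial peptides.

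Most mitochondrial genes fell, whether encoded in the nucleus or in the organelle, beside 27.4% falls and 24.9% rises over all tested genes. All 12 tested protein genes of the mitochondrial genome fell, with a median of -1.25, and took 3.33, 1.69 and 1.98% of the counts at day 0 and 1.2, 0.834 and 0.618% at day 5. Replicate 1 had the highest share at both ages. Of the 12, 8 to 12 fell with 1 library left out. COX3, a subunit of cytochrome c oxidase, went from 4018, 2718 and 2584 CPM to 1580.3, 1246 and 1003 CPM (-1.28 ± 0.25, adjusted p = 0.0011), and ND6, a subunit of complex I, from 1701, 747 and 936 CPM to 361, 256 and 166 CPM (-2.11 ± 0.35). Transcripts of this genome carry short tails, and how poly(A) selection samples them was not tested. Nuclear respiratory chain and ATP synthase genes fell in 46 of 53 cases and rose in 0, with a median of -0.81 (45 to 47 fell with 1 library left out). nuo-4, of complex I, went from 312, 272 and 282 CPM to 138, 150 and 144 CPM (-1.004 ± 0.10, adjusted p = 1.04e-05), and asg-2, of ATP synthase, changed by -1.58 ± 0.16.

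Mitochondrial ribosomal protein genes fell in 57 of 69 cases and rose in 0 (1 rose without day 0 replicate 1), with a median of -0.79. Over all tested genes 27.4% fell and 24.9% rose. mrps-12 had 55.9, 43.1 and 41.5 CPM at day 0 and 11.5, 14.3 and 12 CPM at day 5 (-1.89 ± 0.16, adjusted p = 2.78e-06), and mrpl-37 changed by -1.58 ± 0.14. Day 0 replicate 2, high for sperm and muscle, was the lowest day 0 library for 59 of the 69 genes. Genes of the mitochondrial unfolded protein response fell in 9 of 17 cases and rose in 1 (0 without day 0 replicate 3, day 5 replicate 2 or day 5 replicate 3). The chaperone gene hsp-60 went from 494, 641 and 542 CPM to 111.9, 142 and 142 CPM (-2.09 ± 0.18, adjusted p = 3.1e-06) and the protease gene spg-7 from 84.1, 103 and 121 CPM to 30.6, 35.2 and 39.1 CPM (-1.55 ± 0.19). No value of either gene overlapped between the ages, as for 4386 of the 4588 called falls.

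Genes for making and folding proteins differed by group. Cytosolic tRNA synthetase genes fell in 12 of 20 cases and rose in 0. aars-1, which charges alanine tRNA, went from 36.9, 38.4 and 34.8 CPM to 13.3, 14.7 and 13.7 CPM (-1.40 ± 0.15, adjusted p = 1.57e-05), vars-1 changed by -1.12 ± 0.13 and gars-1 by -0.98 ± 0.12. Of 83 cytosolic ribosomal protein genes 20 fell and 8 rose, both below the 27.4% and 24.9% of all tested genes, with a median of -0.06. Here 11 fell without day 5 replicate 1, 12 without day 5 replicate 2, and 3 rose without day 0 replicate 3. rps-2 went from 1768, 1735 and 1774 CPM to 679.5, 706 and 831 CPM (-1.25 ± 0.15), while the stalk protein gene rla-0 rose from 2769, 4009 and 3235 CPM to 5405, 5485 and 5936 CPM (0.75 ± 0.16). Cytosolic chaperone and heat shock genes fell in 14 of 27 cases and rose in 2. cct-5, of the ring-shaped chaperonin, went from 569, 763 and 652 CPM to 274, 296 and 279 CPM (-1.22 ± 0.15), and hsp-43, a small heat shock protein, rose from 109, 161 and 134 CPM to 500.1, 386 and 309.6 CPM (1.56 ± 0.21). Genes for folding in the endoplasmic reticulum rose in 7 of 22 cases and fell in 2, with a median of 0.18. The falls numbered 0 without day 0 replicate 2 or day 5 replicate 1 or 2, 1 without day 5 replicate 3 and 4 without day 0 replicate 1. ero-1, an oxidase of disulfide bond formation, rose by 0.54 ± 0.09.

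Genes of protein breakdown parted by route, beside 24.9% rises and 27.4% falls over all tested genes. Proteasome subunits fell in 20 of 33 cases and rose in 0, with a median of -0.38. pas-2, of the core ring, went from 324, 198 and 237 CPM to 96.8, 109.8 and 97.9 CPM (-1.32 ± 0.17, adjusted p = 4.39e-05), and pbs-5 changed by -1.12 ± 0.13. Autophagy genes rose in 14 of 28 cases and fell in 0 (2 fell without day 0 replicate 1), with a median of 0.47. sqst-1, the receptor that brings ubiquitinated cargo to autophagosomes, went from 54.5, 95.4 and 84.7 CPM to 345, 303 and 400.4 CPM (2.16 ± 0.24, adjusted p = 1.64e-05), and lgg-2, an autophagosome membrane protein, changed by 0.95 ± 0.15. Lysosomal and gut protease genes rose in 15 of 33 cases and fell in 4. The legumain gene lgmn-1 rose from 26.6, 22.8 and 24.5 CPM to 242, 212 and 348 CPM (3.44 ± 0.21), and asp-4, a cathepsin D relative, from 190.4, 161 and 166 CPM to 647, 506 and 949 CPM (2.02 ± 0.19). asp-14, a further aspartyl protease, fell from 94.8, 160.1 and 89.7 CPM to 7.73, 5.41 and 8.07 CPM (-4.03 ± 0.28). Subunits of the vacuolar ATPase, which acidifies lysosomes, fell in 7 of 21 cases and rose in 2 (1 without day 0 replicate 3, day 5 replicate 1 or day 5 replicate 2).

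Among secreted defence proteins, saposin-like and nlp-cnc peptide genes rose more often than they fell, and single members rose by large factors. Over all tested genes 24.9% rose and 27.4% fell. Of 24 saposin-like genes, relatives of pore-forming amoebapores, 17 rose and 1 fell (2 without day 0 replicate 2), with a median of 1.29. spp-9 (WBGene00004994, chromosome X, 11487784 to 11488203) had 0.131, 0.0599 and 0.0894 CPM at day 0, near the level of 3 counts, and 43.2, 159.7 and 29.6 CPM at day 5 (9.68 ± 0.89, adjusted p = 4.9e-06). spp-21 went from 0.0935, 0.045 and 0.0447 CPM to 18.3, 60.7 and 17.3 CPM (8.92 ± 0.76), again from near the level of 3 counts and with day 5 replicate 2 about 3 times the others. spp-1 was even across libraries, at 39.3, 26.3 and 27.7 CPM and 155, 154 and 153 CPM (2.31 ± 0.17). Caenacins and the nlp-29 group are antimicrobial peptides of the epidermis. Of 19, 12 rose and 3 fell, with a median of 1.58 (11 to 12 rose with 1 library left out). cnc-6 (WBGene00000560, chromosome III, 1763522 to 1764902) went from 0.692, 0.15 and 1.21 CPM to 128, 213 and 77.7 CPM (7.88 ± 0.62, adjusted p = 2.07e-06) and cnc-2 from 0.224, 0.285 and 0.358 CPM to 18.9, 17.4 and 10.7 CPM (5.79 ± 0.35). nlp-29 went from 16.9, 10.5 and 10.2 CPM to 146, 154 and 76 CPM (3.32 ± 0.36), and nlp-34 from 1.35, 2.08 and 4.83 CPM to 143, 198 and 83.2 CPM (5.76 ± 0.57). Day 5 replicate 3 was the lowest at day 5 for each of these 4 peptides.

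Not all peptides of that group moved this way. nlp-24 fell from 77.6, 83.9 and 95.1 CPM to 11.8, 4.99 and 8.21 CPM (-3.36 ± 0.29, adjusted p = 3.51e-06) and nlp-33 from 41.6, 48.7 and 30.7 CPM to 11.8, 17.7 and 10.6 CPM (-1.59 ± 0.32), and cnc-8 (log2 0.10) did not pass. Fungus-induced peptides were divided too, with 7 rises and 13 falls among 25. fip-6 rose from 5.14, 3.42 and 4.34 CPM to 66.7, 75.6 and 26.8 CPM (3.71 ± 0.36), and fipr-13 fell from 21.3, 16.15 and 17.3 CPM to 2.5, 0.834 and 1.88 CPM (-3.40 ± 0.37). Lysozymes rose in 5 of 12 cases and fell in 3, where 24.9% of all tested genes rose and 27.4% fell. lys-7 (WBGene00003096, chromosome V, 3481432 to 3482600) went from 20.2, 18.6 and 32.7 CPM to 1935, 1067 and 2403 CPM (6.25 ± 0.42), while lys-4 fell from 103, 78.8 and 112.1 CPM to 15.8, 15.2 and 22.2 CPM (-2.47 ± 0.25). The invertebrate lysozyme genes ilys-2 (log2 3.85 ± 0.82) and ilys-3 (4.85 ± 0.91) rose from under 1 CPM, and without day 0 replicate 3 their changes were 5.78 and 7.40.

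C-type lectins, many of them secreted by the intestine, rose in 48 of 133 cases and fell in 27. Over all tested genes 24.9% rose and 27.4% fell. clec-60 went from 0.598, 0.285 and 0.939 CPM to 50.6, 26.4 and 37.5 CPM (6.07 ± 0.74, adjusted p = 3.17e-05), clec-146 from 9.78, 7.36 and 8.76 CPM to 175, 210.3 and 99.4 CPM (4.23 ± 0.29), and clec-62 changed by 3.08 ± 0.21. In the p38 MAP kinase pathway of innate immunity 10 of 13 genes rose and 1 fell (0 without day 0 replicate 2, day 5 replicate 1 or day 5 replicate 2, and 2 without day 0 replicate 1). hlh-30, a transcription factor of lysosome and defence genes, rose from 38.4, 75.8 and 55.2 CPM to 142, 127 and 201 CPM (1.47 ± 0.24), and vhp-1, a phosphatase that restrains the pathway, from 43.3, 82.2 and 66.2 CPM to 169, 135 and 177 CPM (1.33 ± 0.20). Infection response genes went both ways. irg-3 rose from 20.3, 24.4 and 20.7 CPM to 98.3, 77.7 and 131 CPM (2.23 ± 0.26), and irg-4 fell from 155, 64.2 and 89.97 CPM to 24.3, 11.4 and 27.9 CPM (-2.28 ± 0.36).

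Insulin-like peptides act on the single insulin receptor of the animal, some as agonists and some as antagonists. Of 31 tested, 9 rose (24.9% of all tested genes did), 3 fell (27.4% of all) and 19 did not pass. ins-7 (WBGene00002090, chromosome IV, 9682011 to 9682845), known as an agonist of the receptor made in the intestine and in neurons, went from 3.93, 2.67 and 4.65 CPM to 132, 163 and 134 CPM (5.27 ± 0.23, adjusted p = 1.45e-07). ins-4 went from 1.78, 2.26 and 1.61 CPM to 15.3, 17.5 and 8.04 CPM (2.84 ± 0.35). ins-5 changed by 1.46 ± 0.33 and ins-16 by 2.92 ± 0.43, both below 4 CPM at day 5 and the second near the level of 3 counts at day 0. ins-37 fell from 3.93, 11.1 and 5.54 CPM to 0.784, 0.834 and 0.831 CPM (-3.07 ± 0.47) and ins-33 from 1.94, 1.39 and 1.74 CPM to 0.381, 0.225 and 0.293 CPM (-2.49 ± 0.31). ins-18, known as an antagonist, gave 2.92, 2.55 and 1.61 CPM and 2.61, 2.71 and 2.44 CPM, with ages that overlap (95% interval of the log2 change -0.48 to 0.73). ins-11 was at 1.53, 0.105 and 0.134 CPM and 3.64, 3.14 and 2.81 CPM and did not pass (adjusted p = 0.0665), with day 0 replicate 1 above the other day 0 libraries. Calls of daf-28, ins-9, ins-12 and ins-35 were each lost without day 0 replicate 3 and at least 1 other library, with adjusted p of at most 0.05 with all libraries. Those of daf-28, ins-9 and ins-35 were also lost under at least 1 alternative of scaling, filter or test.

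Downstream of the receptor, insulin and TOR pathway genes rose in 14 of 24 cases and fell in 2. The rises numbered 7 without day 0 replicate 1 and 8 without day 5 replicate 3, and the falls 1 without day 0 replicate 2, day 5 replicate 1 or day 5 replicate 2 and 4 without day 0 replicate 1. rict-1, of TOR complex 2, went from 67.3, 58.4 and 85.9 CPM to 188, 229.8 and 243 CPM (1.64 ± 0.21, adjusted p = 4.47e-05), and the ages lay apart. The kinase gene akt-1 rose by 0.80 ± 0.11 and aap-1, the adaptor of phosphoinositide 3-kinase, by 1.097 ± 0.12. Of 28 genes known as induced by the FOXO factor DAF-16 in long-lived insulin mutants, 14 rose and 5 fell. For this list and the pathway list, the shares over all tested genes were 24.9% rises and 27.4% falls. lys-8 went from 103, 105.3 and 123 CPM to 334, 317 and 457 CPM (1.75 ± 0.17) and ttr-44 from 15.5, 11.3 and 7.92 CPM to 48.8, 51.9 and 67.8 CPM (2.27 ± 0.27). Among 6 genes lowered in such mutants, dod-22 fell from 26.8, 29.6 and 31.1 CPM to 1.91, 1.22 and 1.64 CPM (-4.201 ± 0.36), and dod-24 by a log2 of 2.66. dod-19 rose by 1.08 ± 0.29.

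Lipid genes divided by family, beside 24.9% rises and 27.4% falls over all tested genes. Of 8 fatty acid and retinol binding proteins, secreted carriers, 6 rose and 0 fell (4 to 6 rose with 1 library left out). far-2, abundant at both ages, went from 3437, 4450 and 3660.3 CPM to 7681, 6528 and 7336 CPM (0.90 ± 0.15, adjusted p = 0.000359). far-6 went from 94.2, 129 and 103 CPM to 597, 417 and 531 CPM (2.25 ± 0.18) and far-3 from 10.9, 2.88 and 10.5 CPM to 256, 154 and 164 CPM (4.58 ± 0.47). Intracellular lipid-binding proteins rose in 3 of 9 cases (1 without day 0 replicate 3 or day 5 replicate 1) and fell in 2, with a median of -0.51. lbp-2 rose by 1.31 ± 0.22, and lbp-6 changed by -0.82 ± 0.14. Of 16 fatty acid desaturases and elongases 7 rose and 8 fell, among them the desaturases fat-2 (0.83 ± 0.14) and fat-4 (1.02 ± 0.14) and the elongase elo-8 (-3.92 ± 0.61). Of 62 genes of fatty acid activation and beta-oxidation 27 rose and 18 fell. ech-6, an enoyl-CoA hydratase, fell from 309.8, 307 and 289.8 CPM to 93.7, 103 and 110.4 CPM (-1.56 ± 0.13), and cpt-3, of the carnitine palmitoyltransferase family, rose from 0.449, 1.68 and 0.805 CPM to 53.4, 57.3 and 27.7 CPM (5.52 ± 0.65). Glycolysis and gluconeogenesis genes fell in 12 of 24 cases and rose in 3 (1 without day 0 replicate 1, day 0 replicate 3, day 5 replicate 2 or day 5 replicate 3). The phosphofructokinase gene pfk-1.1 went from 89.1, 126 and 114 CPM to 51.1, 41.23 and 44.8 CPM (-1.26 ± 0.14), and the aldolase gene aldo-1 changed by -1.79 ± 0.19.

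Detoxification families went different ways, beside 24.9% rises and 27.4% falls over all tested genes. Cytochrome P450 genes rose in 33 of 59 cases and fell in 4, cyp-14A5 from 14.4, 24.6 and 16.7 CPM to 542, 348 and 326 CPM (4.44 ± 0.27, adjusted p = 9.23e-07). UDP-glucuronosyltransferases were even, with 19 rises and 20 falls among 63. ugt-29 rose from 26.6, 35.1 and 24.5 CPM to 434, 243 and 286 CPM (3.48 ± 0.29). Glutathione transferases fell in 18 of 45 cases and rose in 7. gst-28 went from 12.9, 14.2 and 13 CPM to 2.05, 1.75 and 2.13 CPM (-2.76 ± 0.24), and gst-4, a known reporter of the oxidative stress response, from 33.6, 36.9 and 33.7 CPM to 15.4, 12.2 and 16.5 CPM (-1.24 ± 0.16). Among 16 genes of redox defence, the catalases ctl-1 (2.196 ± 0.44) and ctl-2 (1.77 ± 0.30) rose. msra-1, which repairs oxidised methionine, fell from 106, 113 and 114 CPM to 11.4, 9.19 and 9.51 CPM (-3.47 ± 0.26, adjusted p = 1.67e-06), with close values at each age. Transthyretin-like secreted proteins rose in 31 of 56 cases and fell in 11, and ttr-45 went from 82.4, 77 and 77.2 CPM to 299, 354 and 277 CPM (1.97 ± 0.12).

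Several metabolic and housekeeping groups held single members that fell far more than the rest. They were singled out after their values were seen. The ribosomal protein gene rpl-42 had 2.09, 6.67 and 3.35 CPM at day 0 and 0.127, 0.128 and 0.0244 CPM at day 5 (-5.34 ± 0.72), against a median of -0.06 for its group. pck-3, related to the gluconeogenic carboxykinase, had 5.55, 30.6 and 10.5 CPM and 0.254, 0.0802 and 0.196 CPM (-6.49 ± 0.77), and pfk-1.2, a phosphofructokinase, 3.36, 17.4 and 6.35 CPM and 0.254, 0.112 and 0.196 CPM (-5.60 ± 0.73). The histone gene his-70 changed by -5.45 ± 0.67, the cytochrome c gene cyc-2.2 by -6.41 ± 0.60, and the acyl-CoA dehydrogenase gene acdh-8 by -6.93 ± 0.58. Changes of the acyl-CoA synthetase genes acs-15 and acs-18 were -6.81 ± 0.75 and -6.54 ± 0.70, of the elongase gene elo-7 -5.13 ± 0.76, and of ttr-12 -6.89 ± 0.60. In each of these 10 genes day 0 replicate 2 was the highest library, and no day 5 library exceeded 1 CPM. That replicate was also highest of the day 0 libraries for 28 of 29 major sperm proteins, 88 of 130 numbered collagens and 47 of 58 muscle genes. It was highest at day 0 for 44.1% of all tested genes, and what the 10 genes share was not tested.

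Among other genes with large gains, brp-1 went from 195, 349.8 and 287 CPM to 2389, 2088 and 1776 CPM (2.91 ± 0.22, adjusted p = 1.84e-06), and asp-6, an aspartyl protease of the gut, from 669, 1064 and 1083 CPM to 2678, 2562 and 4315 CPM (1.76 ± 0.25). drd-50 went from 2.92, 2.04 and 2.82 CPM to 60.9, 39 and 62 CPM (4.39 ± 0.29), and ora-1, named as an Onchocerca-related antigen, from 0.654, 1.83 and 2.06 CPM to 41.7, 57.5 and 23.2 CPM (4.78 ± 0.64). eef-2, the translation elongation factor that moves the ribosome along, went from 2426, 3751 and 3417 CPM to 4650.5, 4795 and 6148 CPM (0.70 ± 0.20, adjusted p = 0.0116). Its call was lost without day 0 replicate 1 (adjusted p = 0.0593) or day 5 replicate 3 (adjusted p = 0.0528). In each of the 5 genes all day 5 values lay above all day 0 values, and 4058 of the 4175 called rises had no overlap. epic-2 fell from 487, 2104 and 1455 CPM to 62.1, 23.5 and 53.7 CPM (-4.86 ± 0.59), with replicate 2 highest at day 0 and lowest at day 5. The ribosomal protein genes rps-9 (-1.14 ± 0.15) and rpl-3 (-0.78 ± 0.16) were among the largest losses in CPM, from 3092, 2103 and 2461 CPM to 1112, 1131 and 1239.9 CPM and from 2649, 3511 and 3097 CPM to 1777, 1787 and 1819 CPM. rrn-3.1, a ribosomal RNA gene that poly(A) selection should remove, took 3021, 8539.9 and 2683 CPM and 2989.6, 4973 and 2340.4 CPM, and its ages overlapped.

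Large regulatory families changed in both directions, beside 24.9% rises and 27.4% falls over all tested genes. Nuclear hormone receptors rose in 39 of 197 cases and fell in 26. Here 25 rose without day 0 replicate 3 or day 5 replicate 1, and 13 and 17 fell without day 5 replicates 2 and 3. nhr-114, known for protecting the germ line under dietary stress, fell from 13.9, 23.2 and 20.3 CPM to 6.06, 4.27 and 5.7 CPM (-1.84 ± 0.23, adjusted p = 3.73e-05), and nhr-154 rose from 7.57, 9.11 and 7.51 CPM to 22.9, 22.5 and 19.4 CPM (1.42 ± 0.18). F-box A proteins, substrate adaptors of ubiquitin ligases, rose in 41 of 129 cases and fell in 25. fbxa-72 fell from 18.8, 19.3 and 17.3 CPM to 3.2, 2.37 and 2.4 CPM (-2.80 ± 0.21) and fbxa-50 rose from 0.71, 0.959 and 0.492 CPM to 9.59, 6.45 and 6.14 CPM (3.32 ± 0.38). Proteins with MATH domains rose in 16 of 60 cases and fell in 10 (6 without day 5 replicate 2 or 3), math-38 rising from 0.0374, 0.12 and 0.134 CPM to 2.44, 1.99 and 2.25 CPM (4.55 ± 0.56). Histone genes rose in 8 of 39 tested cases and fell in 9 (5 without day 5 replicate 1). his-72, a histone H3.3 gene, rose from 144, 137 and 131 CPM to 224, 253 and 250.3 CPM (0.82 ± 0.10). Replication-dependent histone mRNAs lack poly(A) tails, so these libraries sample that class poorly. Intestinal genes divided as well, with 4 rises (7 without day 0 replicate 2) and 4 falls among 21. pho-1, an intestinal acid phosphatase, fell from 22.3, 33 and 16.3 CPM to 3.58, 3.63 and 5.52 CPM (-2.50 ± 0.30), and pgp-3, a membrane transporter, rose from 6.36, 10.4 and 8.32 CPM to 19.6, 18.8 and 23.4 CPM (1.298 ± 0.20).

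Genes linked to mir-71 by earlier work rose more often than they fell. Of 12 tested, 6 rose (24.9% of all tested genes did), 1 fell (27.4% of all) and 5 did not pass. In N2, 5 of the 12 rose and 3 fell, with a median of 0.34 against 0.38 in mutants. The change with age differed between the genotypes, by the test of that difference, for 0 of the 12. hbl-1, a transcription factor of developmental timing, went from 1.35, 1.81 and 2.24 CPM to 7.43, 6.32 and 10.2 CPM (2.16 ± 0.27, adjusted p = 4.26e-05). tir-1, the SARM protein upstream of p38 signalling, went from 21.9, 49 and 30.01 CPM to 117, 93.3 and 97.1 CPM (1.60 ± 0.25, adjusted p = 0.000207), and cdc-25.1, a cell cycle phosphatase, from 129, 142 and 153 CPM to 218, 241 and 217 CPM (0.68 ± 0.13). The PI3K gene age-1 (adjusted p = 0.209), pdk-1 (adjusted p = 0.248), nsy-1 (adjusted p = 0.293), unc-31 (adjusted p = 0.694) and tcer-1 (adjusted p = 0.0677) did not pass. daf-16 had 136, 209 and 182 CPM and 229, 221 and 262 CPM (0.43 ± 0.16, adjusted p = 0.0366). Its call was lost with DESeq2, with RLE or upper-quartile scaling factors and with the mutant libraries alone. It was also lost without either of day 0 replicates 1 and 3 or day 5 replicates 1 and 3. The call of pha-4 was lost without the same 4 libraries and with the mutant libraries alone. The only fall, of lin-42, was lost without day 0 replicate 2, after which its log2 change was -1.105. ppfr-1 (WBGene00008878, chromosome I, 9364099 to 9389982), whose intron holds mir-71, had 466, 841 and 604 CPM at day 0 and 808, 591 and 703 CPM at day 5, overlapping ages that did not pass the test (0.14 ± 0.19, adjusted p = 0.571, 95% interval -0.28 to 0.55).

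A small set of genes stayed within a narrow range. For 1165 genes (6.95% of those tested) the 95% interval of the log2 change lay between -0.5 and 0.5, which includes 11 genes with a small called change. The most abundant were ribosomal protein and elongation factor genes. rps-14 had 1646, 1837 and 1626 CPM and 1555, 1696 and 1717 CPM (interval -0.32 to 0.24), rpl-17 1821, 2139.5 and 1951 CPM and 1838, 2122 and 2244 CPM (interval -0.24 to 0.38), and eef-1G 1578, 2102 and 1869 CPM and 1929, 1947 and 2076 CPM (interval -0.20 to 0.40). All 3 overlapped between ages. For the other genes that did not pass, larger changes remain possible within their intervals.

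How many genes changed differently with age in mutants and N2 depended on the model. By the test of the difference itself, the change was higher in mutants for 76 genes (0.453%) and lower for 17 (0.101%). Of the 76, 57 rose and 4 fell in mutants. Of the 17, 3 rose and 11 fell. At day 0, libraries of the genotypes that share a replicate number deviated together (r across genes of 0.758, 0.664 and 0.285), and at day 5 they did not (-0.0002, -0.0105 and 0.192). With the replicate number as a block the counts were 179 and 54, and with a block within each age, a fit chosen after seeing the data, 817 and 228. All 93 genes passed in both blocked fits. The counts also depend on single libraries. The 76 became 36, 367 and 21 without day 0 replicates 1, 2 and 3 of the mutants and 16, 30 and 82 without their day 5 replicates 1, 2 and 3. Without N2 day 0 replicates 1, 2 and 3 they became 70, 30 and 14, and without N2 day 5 replicates 1, 2 and 3 they became 8, 38 and 8. The 17 became 16, 93, 6, 4, 4, 30, 11, 5, 2, 2, 8 and 2 in the same order. Of 22 named genes past this test, 4 passed in each of 19 alternative fits, namely ins-7, pqn-36, hex-1 and mtl-1. Of the other genes 5 did so too, chosen after their values were seen. Differences were 5.38 for str-163, 5.29 for nhx-6, 4.07 for clec-82, 2.64 for K11H12.6 and 1.97 for F42G10.1. The mean of str-163 in N2 at day 5 was 0.0881 CPM. Day 0 means of nhx-6 were 0.147 CPM in mutants and 0.127 CPM in N2. These levels lay near that of 3 counts in a library, so the sizes of both differences are uncertain.

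ins-7 rose in both genotypes. N2 libraries had 2.95, 3.1 and 3.17 CPM at day 0 and 21.1, 24.7 and 16.5 CPM at day 5, so the day 5 levels of the genotypes lay apart, and the changes differed by a log2 of 2.52 ± 0.29 (adjusted p = 0.00517). pqn-36, named for its glutamine-rich and asparagine-rich protein, went from 3.36, 4.56 and 4.65 CPM to 30.1, 22.1 and 28.6 CPM in mutants, and stood at 3.91, 3.54 and 5.72 CPM and 4.2, 4.88 and 4.35 CPM in N2 (difference 2.65 ± 0.33, adjusted p = 0.0073). Mutants alone thus showed a called change of pqn-36. hex-1, a lysosomal hexosaminidase, moved in opposite directions, from 38.4, 42.5 and 43.1 CPM to 24.1, 23.2 and 24.4 CPM in mutants and from 42.2, 41.12 and 49.3 CPM to 123, 85.4 and 87.2 CPM in N2 (difference -1.95 ± 0.21, adjusted p = 0.00501). The metallothionein gene mtl-1, a known DAF-16 target that binds metals, had 0.58, 0.315 and 0.805 CPM and 1.42, 0.995 and 1.76 CPM in mutants against 0.336, 0.954 and 0.658 CPM and 66.5, 53.2 and 67.7 CPM in N2 (difference -5.18 ± 0.54, adjusted p = 0.00501). All 3 mutant libraries at day 5 lay below all 3 N2 libraries at day 5.

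Other named genes passed with all libraries but not in all 19 fits. tatn-1, tyrosine aminotransferase of tyrosine breakdown, rose in mutants from 23.8, 32.8 and 45.5 CPM to 99.8, 72.8 and 68.9 CPM and in N2 went from 20.6, 28.9 and 46.4 CPM to 14.3, 10.6 and 13.2 CPM (difference 2.58 ± 0.42, adjusted p = 0.0262, passed in 13 fits). ins-4 was at 2.59, 2.71 and 1.68 CPM and 2.17, 3.34 and 1.78 CPM in N2 (difference 2.76 ± 0.48, adjusted p = 0.0285, passed in 10). gst-4 was at 27, 21.6 and 23 CPM and 23.4, 23.4 and 27.4 CPM in N2 (difference -1.296 ± 0.22, adjusted p = 0.0265, passed in 12). The abundant collagen gene col-140 fell from 2778, 3347 and 3778 CPM to 1705, 700.4 and 954 CPM in mutants and from 3153, 3315 and 4383 CPM to 332, 277 and 272 CPM in N2, a difference of 2.06 ± 0.39 (adjusted p = 0.0405, passed in 11). In this comparison 14 further named genes passed, among them cnc-6, nlp-34 and clec-232 with larger rises in mutants and asp-14 and sdz-24 with deeper falls.

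**Figure D5:**
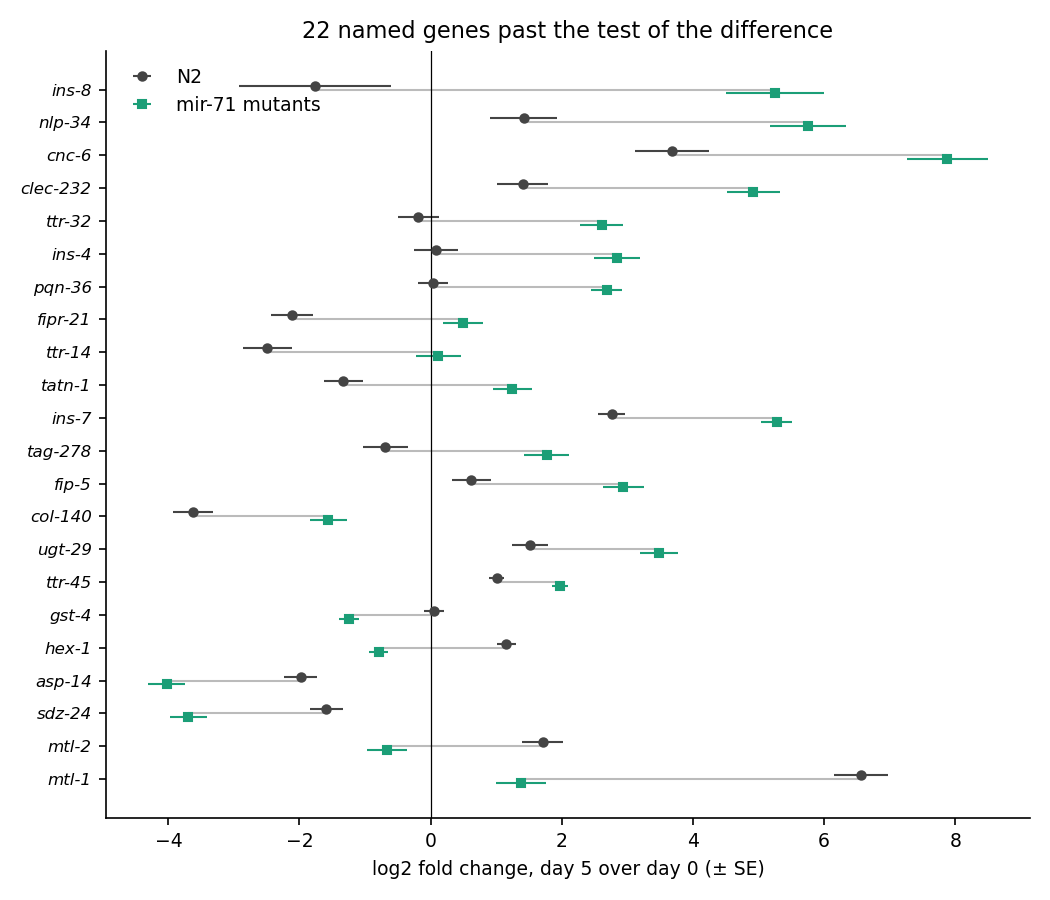
Log2 fold change from day 0 to day 5 with its SE in N2 (grey circles) and in mir-71 mutants (green squares) for the 22 named genes past the test of the difference, ordered by that difference. mtl-1 at the bottom rose far more in N2, and ins-7, which rose in both, rose more in mutants.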

How the data were processed

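Raw read counts per gene of 12 poly(A) libraries were analysed as the authors deposited them, in 1 table of 46726 gene identifiers, of which 20054 were at 0 throughout. The reads had been aligned with STAR 2.4.0h to WBcel235, and DESeq2 was used, per the submitters' processing notes; the counter, annotation and strand setting are not given in the sources used, so overlapping and antisense genes cannot be separated. The authors also deposited regularised log2 values, used for 1 alternative. Symbols and coordinates come from the Ensembl release 115 annotation of WBcel235, with symbols for 43623 identifiers and no position for 362.

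Counts were filtered with filterByExpr, scaled by TMM and tested in R 4.3.3 with edgeR 4.0.16 (quasi-likelihood F-test, limma 3.58.1) with 4 group means over all 12 libraries, Benjamini-Hochberg adjustment and a threshold of 0.05. Standard errors (SE) follow from the F statistic and intervals (95%) from its degrees of freedom. The difference between genotypes was an interaction contrast. Tests were tried on simulated counts first. Alternatives were RLE and upper-quartile factors, TMM without the most variable groups, no filter, DESeq2 1.42.0, the mutant libraries alone, a replicate block, a replicate block within each age (added after seeing the data, for the difference between genotypes) and each library left out. The labels do not say what a replicate number marks. Deviations of same-numbered libraries from their group means correlated at 0.285 to 0.758 between genotypes at day 0 and at -0.0105 to 0.192 at day 5. The main fit paired neither genotypes nor ages. The replicate block paired both, and the block within each age paired genotypes at both ages. The level of 3 counts covers counting error only, and intervals the spread between libraries.

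The comparison, gene groups and named genes were chosen with earlier results of these data known. Named genes were the largest log2 changes at an average log2 CPM of at least 3, the largest gains and losses, the members of each group with the smallest p, the most abundant and most stable genes, and, at the same level, the largest differences between genotypes, at most 2 for a symbol prefix. All of these choices except that of group members took only genes with a symbol of letters, a hyphen and a number. The largest log2 changes also had to have mutant levels that did not overlap between day 0 and day 5.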

Additional observations from a re-analysis of the deposited data

Results flagged for a closer look

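The change from day 0 to day 5 differed between mir-71 mutants and N2, by the test of that difference, for 76 genes with a higher change in mutants and 17 with a lower one. Among named genes the largest positive difference was that of ins-8, 7.02 on the log2 scale, whose day 0 mutant libraries held at most 0.0561 CPM, so that the value depends on the prior count. The antimicrobial peptide genes nlp-34 and cnc-6 differed by 4.34 and 4.19, and the fungus-induced peptide genes fipr-21 and fip-5 by 2.61 and 2.32. The lectin gene clec-232 differed by 3.52. Both insulin-like peptide genes ins-4 (2.76) and ins-7 (2.52) rose more in mutants. The transthyretin-like genes ttr-32, ttr-14 and ttr-45 differed by 2.80, 2.60 and 0.96. Positive differences were also found for pqn-36 (2.65), tatn-1 (2.58), tag-278 (2.46), col-140 (2.06) and ugt-29 (1.97). Negative differences were found for the metallothionein genes mtl-1 (-5.18) and mtl-2 (-2.37), and for sdz-24 (-2.103), asp-14 (-2.04), hex-1 (-1.95) and gst-4 (-1.296). mtl-2 was at 31.8, 18.7 and 14.2 CPM and 18, 11 and 12 CPM in mutants and at 31.5, 25 and 18.3 CPM and 103.8, 73.3 and 67.9 CPM in N2.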

How the results depend on the processing

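The counts of rises (4175) and falls (4588) in mutants were taken under every alternative except those that left out an N2 library. They stayed within 1.5 times, between 3247 and 4557 rises and between 3930 and 4875 falls. With 1 N2 library left out, 8323 to 8606 of the 8763 calls were kept. No call reversed in any alternative. Of 359 named genes called, 330 kept their call in all alternatives in which they were tested, the fits without an N2 library not included. The counts of genes that differ between genotypes (76 higher and 17 lower) were less stable. They were 354 and 205 with DESeq2, 193 and 52 without a filter, and 8 to 367 and 2 to 93 with 1 library left out. With the replicate block they were 179 and 54, and with a replicate block within each age, added after seeing the data, 817 and 228. Same-numbered libraries of different ages did not pair (r of -0.157, -0.145 and 0.112 in mutants and of -0.0443, 0.240 and 0.123 in N2), and the block gave 4557 rises and 4725 falls in mutants. The cause of these shifts was not tested. Depth limits genes near 0.045 to 0.134 CPM, the level of 3 counts in a mutant library.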
